A study of Mus musculus with 12 samples.

Results

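The genes described here are 10 genes that mark or make dopaminergic neurons: Th, Ddc, Slc6a3, Slc18a2, Nr4a2, Pitx3, Foxa1, Foxa2, Aldh1a1 and Lmx1a. They were taken by gene name from the array annotation, and all 10 were found, among 21186 gene names, through 12 of 41174 probes and 30 of 43379 spots. The probes of Th and Foxa2 were each printed on 10 spots, and the other 10 probes on 1 spot. The study asked how gene expression in the brain differs in mice that lack a functional engrailed-2 gene. RNA from whole cerebellum and whole hippocampus was hybridised to 12 one-colour arrays, with 3 arrays for each of 4 groups: WT cerebellum, En2-/- cerebellum, WT hippocampus and En2-/- hippocampus.

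The groups labelled En2WT and En2KO were WT and En2-/- littermates of both sexes, aged 3 to 5 months, bred from heterozygous parents and given no treatment. The mutant allele lacks the homeobox of En2 in every cell from conception, so an adult level can reflect development as well as the adult state. The mutation arose on a mixed 129Sv x C57BL/6 and outbred stock and had been bred into C57BL/6 for at least 5 crosses. Both genotypes came from this stock, and whether they differed in DNA near the En2 locus was not tested. Each array held RNA of 1 region and 1 genotype, and the study describes 3 mice per genotype. The 4 arrays with the same replicate number lay on 1 slide, always in the same order of groups, so that position on the slide and group cannot be told apart.

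Dopamine is made in 2 steps. Tyrosine hydroxylase (Th) turns tyrosine into L-DOPA, and Ddc, the aromatic amino acid decarboxylase that serotonin neurons share, turns L-DOPA into dopamine. Slc18a2 (VMAT2) loads dopamine and other monoamines into vesicles, and Slc6a3 (DAT) takes released dopamine back into the terminal. The cell bodies that hold these transcripts lie mainly in the ventral midbrain, where Lmx1a, Foxa1 and Foxa2 act early, Nr4a2 and Pitx3 act late in the making of the neuron, and Aldh1a1, a retinaldehyde dehydrogenase, marks part of the mature cells. Engrailed genes have a role in the survival of these neurons. The cerebellum and the hippocampus receive monoamine axons, while some Purkinje cells carry Th RNA and other cells carry Nr4a2, Ddc or Aldh1a1, so no member is a marker of midbrain neurons alone in these tissues.

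Values are log2 of the scanner's processed signal after quantile normalisation over the 12 arrays, so a difference of 1 is a 2-fold difference in signal. A probe was called above background on an array where the scanner software set its flag for a signal well above background, on most of its spots where it had several. A region's test took in a gene when the brightest of its probes passed this flag on every array of one genotype or the other, provided that each genotype kept 2 or more values. Between 62.27% and 73.05% of spots were above background on an array, and arrays of 1 region correlated between 0.961 and 0.991 over the genes tested. The En2 probe itself was above background on all 12 arrays, between 13.80 and 14.81 in the cerebellum and between 7.04 and 8.14 in the hippocampus, with overlapping genotypes in both. The study places this probe in a stretch of En2 outside the deletion, so it does not check the labels. The labelled tissues carried their markers: the summed signal of 8 granule neuron markers was 143000 to 213000 on the cerebellum arrays and 1910 to 3900 on the hippocampus arrays, that of 7 Purkinje markers 263000 to 399000 and 79600 to 98600, and that of 8 hippocampal neuron markers 7910 to 9440 and 34300 to 54900. In whole tissue, fewer cells of a type and less RNA per cell cannot be told apart.

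In the En2-/- cerebellum, 6 of the 7 members tested had a higher mean than in WT and 1, Aldh1a1, had a lower mean, but no member passed the test. The median log2 fold change of the 7 members was 0.56, against -0.03 over all 15611 genes tested. With 1 array left out, the median of the members then tested ran from 0.31 to 1.00, the highest without En2-/- array 1. Without array 1 of either genotype this median takes in Foxa2, and without WT array 1 or 2 it loses Aldh1a1. limma, with Benjamini-Hochberg adjustment over all genes tested, called 103 genes at an adjusted p under 0.05, which is 0.66% of those tested, and 0 of the 7 members. At an unadjusted p under 0.05 it called 1 member, Ddc, against 9.3% of all genes. The members did not move as a group on all 3 En2-/- arrays: arrays 2 and 3 carried the high values, and array 1 was near WT. Of the 6 members tested with a value on every array, 5 had En2-/- arrays 2 and 3 as their 2 highest of 6, a pattern that 8.16% of all such genes showed. These 5 were Th, Ddc, Slc6a3, Slc18a2 and Nr4a2. The rule for this pattern was set after the values were seen.

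**Figure D1:**
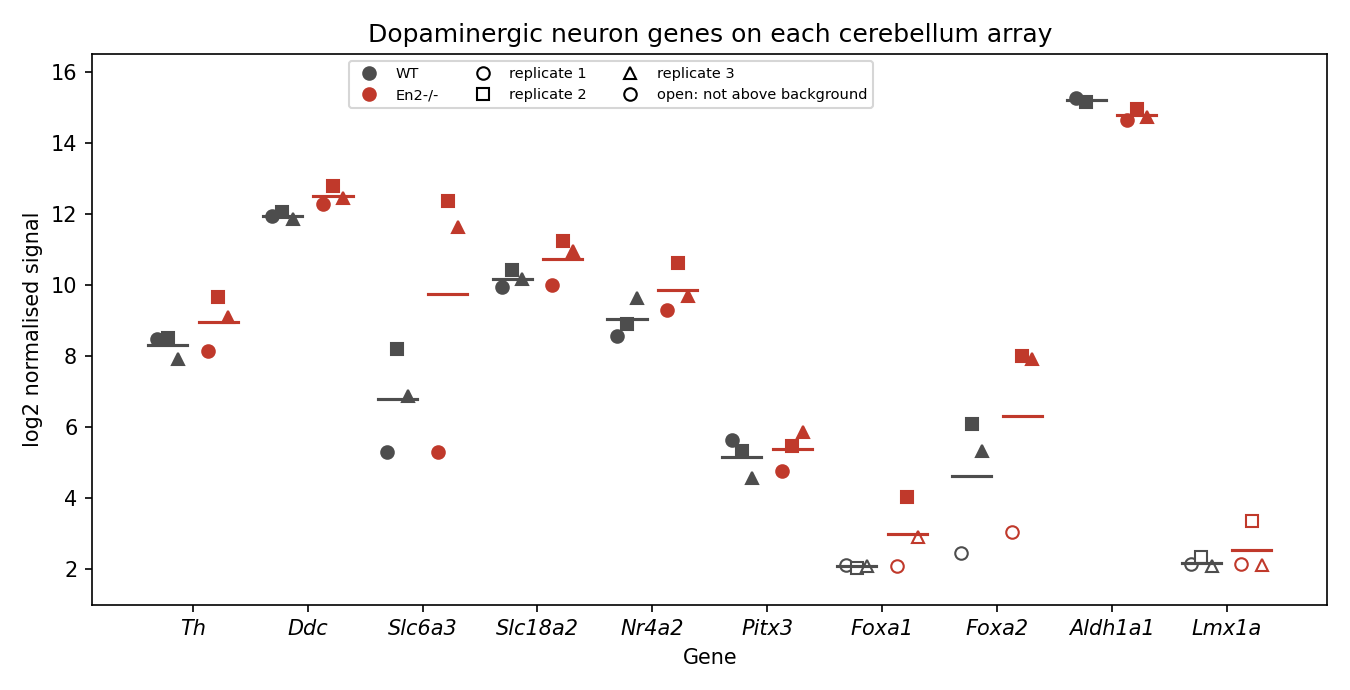
Log2 normalised signal (y axis) of the 10 members (x axis) on the 6 cerebellum arrays, WT in grey and En2-/- in red, with the replicate number as the marker shape, open markers where the probe was not above background and a bar at the mean of each group. Slc6a3 was at 12.36 and 11.62 on En2-/- arrays 2 and 3 and at 5.29 on array 1, the WT 3 value of Aldh1a1 is missing because its spot was an outlier, and levels should be compared within a gene only.

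Th encodes the first and rate-limiting enzyme of dopamine synthesis, which noradrenergic cells use as well. Its probe reads 60 bases of the transcript from the minus strand of chromosome 7 (mm9, chr7:150079917-150079976), and is shown because its repeated spots, 9 or 10 with a value on each cerebellum array and all of these above background, measure the gene many times over:
Th probe: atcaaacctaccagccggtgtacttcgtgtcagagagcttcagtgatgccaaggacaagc
Th was at 8.49, 8.50 and 7.91 on the WT cerebellum arrays 1, 2 and 3, and at 8.13, 9.65 and 9.09 on the En2-/- arrays. En2-/- arrays 2 and 3 lay above every WT array, while array 1 lay within the WT range, so the groups overlapped. The spots of the probe had an SD between 0.08 and 0.17 within a cerebellum array, so the difference between arrays was larger than the spread between spots. The log2 fold change was 0.65 (SE 0.38; limma, adjusted p = 0.687), and within slides 1, 2 and 3 the En2-/- array differed from the WT array by -0.36, 1.15 and 1.18. The rank product order, which ranks genes by the geometric mean rank of the 9 ratios of En2-/- to WT arrays, put Th at place 539 of 15611 for higher signal in En2-/-.

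Ddc was the only member above its WT range on all 3 En2-/- cerebellum arrays. It is read by a pair of probes on the minus strand of chromosome 11, at mm9 chr11:11715320-11715379 (the brighter probe) and chr11:11776262-11776321, shown because they read separate stretches of the same RefSeq transcript and so give the gene 2 separate measurements:
Ddc probe, brighter: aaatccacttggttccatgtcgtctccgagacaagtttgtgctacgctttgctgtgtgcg
Ddc probe, dimmer: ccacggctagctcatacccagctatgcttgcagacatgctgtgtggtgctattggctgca
The brighter probe was at 11.94, 12.05 and 11.85 on the WT arrays and at 12.27, 12.77 and 12.46 on the En2-/- arrays. The log2 fold change was 0.55 (SE 0.20), a 1.47-fold higher signal, with an adjusted p of 0.429 by limma and an exact two-sided permutation p of 0.1, which is the smallest that 3 against 3 arrays can give for a two-sided test. The dimmer probe was at 8.76, 8.78 and 8.93 in WT and at 8.72, 10.05 and 9.27 in En2-/-, so on this probe array 1 fell at the low end of WT. Its log2 fold change was 0.52 (SE 0.33; limma over all probes, adjusted p = 0.787). One member of 7 with all En2-/- arrays above all WT arrays compares with 6.01% of all genes tested.

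Slc6a3, the dopamine transporter and the most specific dopaminergic gene of the list, had the widest range of any member. It was at 5.29, 8.20 and 6.88 on the WT cerebellum arrays and at 5.29, 12.36 and 11.62 on the En2-/- arrays. In normalised signal these were 39.2, 294 and 117 in WT against 39.2, 5270 and 3140 in En2-/-. En2-/- arrays 2 and 3 stood far above every WT array, while array 1 had the same value to 2 decimals as the lowest WT array. The log2 fold change was 2.97 (SE 1.69; limma, adjusted p = 0.681), and within slides 1, 2 and 3 it was 0.00, 4.17 and 4.74. With the slide as a block the adjusted p was 0.236 (SE 0.79). Without both arrays of slide 1, an alternative chosen after seeing the data, it was 4.45 and passed the test (limma, adjusted p = 0.0161). Without En2-/- array 2 it was 1.67 and without En2-/- array 1 it was 5.20, and the adjusted p was 0.865 and 0.0536. In the rank product order Slc6a3 stood at place 22 of 15611. Its probe lies at mm9 chr13:73715973-73716032, on the plus strand.

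Slc18a2, the vesicular monoamine transporter, is read by a pair of neighbouring probes at mm9 chr19:59369846-59369906 and chr19:59370102-59370161, which gave the same order of arrays within En2-/-. The brighter was at 9.93, 10.43 and 10.16 in WT, lay 0.07 above WT array 1 on En2-/- array 1, and was at 11.24 and 10.96 on En2-/- arrays 2 and 3. The other was at 9.62, 10.07 and 9.89 in WT and at 9.60, 11.19 and 10.52 in En2-/-. On both probes En2-/- arrays 2 and 3 lay above WT, and array 1 lay within 0.07 of the lowest WT array. The log2 fold change was 0.56 (SE 0.33; limma, adjusted p = 0.691), and 0.58 (SE 0.38) on the second probe.

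The promoters of Th, Slc18a2 and Slc6a3 are shown because, of the members tested, these had the highest correlations over the cerebellum arrays with the mean of the members, given further on. RefSeq entries were found for all 10 members (14 entries, GRCm38.p6), and the 250 bases before the annotated start are printed with matches to the searched motifs in capitals:
Th, chr7:142899996-142900245, minus strand: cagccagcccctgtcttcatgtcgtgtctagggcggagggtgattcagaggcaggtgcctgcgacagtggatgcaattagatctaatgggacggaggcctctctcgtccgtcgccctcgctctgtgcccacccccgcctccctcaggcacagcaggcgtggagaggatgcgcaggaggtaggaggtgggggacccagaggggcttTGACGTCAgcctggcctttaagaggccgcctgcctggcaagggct
Slc18a2, chr19:59260628-59260877, plus strand: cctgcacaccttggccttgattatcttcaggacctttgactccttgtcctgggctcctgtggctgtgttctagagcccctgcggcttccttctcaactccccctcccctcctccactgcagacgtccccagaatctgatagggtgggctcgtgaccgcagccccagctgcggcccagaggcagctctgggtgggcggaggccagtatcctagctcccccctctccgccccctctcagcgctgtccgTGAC
Slc6a3, chr13:73536497-73536746, plus strand: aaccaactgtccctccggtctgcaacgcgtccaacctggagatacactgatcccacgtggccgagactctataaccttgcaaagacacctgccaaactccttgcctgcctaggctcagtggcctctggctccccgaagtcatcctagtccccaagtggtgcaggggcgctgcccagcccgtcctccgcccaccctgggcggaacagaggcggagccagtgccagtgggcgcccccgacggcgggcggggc
Both strands of the windows from 250 bases before to 50 bases after the start were searched for the cAMP response element TGACGTCA, the Nr4a monomer element AAAGGTCA, the forkhead element TGTTTAC, the homeodomain core TAATTA and the bicoid-type element TAATCC. Th held TGACGTCA 45 bases before the start, and Slc18a2 held it from 4 bases before the start onwards, so that only its first letters are printed. Of 32851 promoter windows, 1.79% held this motif. Ddc held AAAGGTCA 73 bases before one of its starts (1.51% of windows) and Foxa1 held TGTTTAC 141 bases before its start (3.65%). The other motifs, in 5.29% and 7.06% of windows, were not found in a member, and Slc6a3 held none of the letters searched. These matches describe the letters only.

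Nr4a2 (Nurr1) is the orphan nuclear receptor that switches on Th, Slc6a3 and Slc18a2 in developing dopaminergic neurons, and in other neurons it is induced by activity. Its probe lies on the minus strand of chromosome 2 (mm9, chr2:56960699-56960758) and is shown as the only probe of this regulator:
Nr4a2 probe: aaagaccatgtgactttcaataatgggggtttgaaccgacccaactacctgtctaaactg
Nr4a2 was at 8.57, 8.91 and 9.62 on the WT cerebellum arrays and at 9.28, 10.62 and 9.68 on the En2-/- arrays. En2-/- array 3 was only just above WT array 3, and array 1 lay inside the WT range. The log2 fold change was 0.82 (SE 0.39; limma, adjusted p = 0.603), and within slides it was 0.70, 1.71 and 0.05. Pitx3, the homeodomain factor of late dopaminergic differentiation, was at 5.62, 5.32 and 4.55 in WT and at 4.77, 5.47 and 5.86 in En2-/-, with a log2 fold change of 0.20 (SE 0.36; limma, adjusted p = 0.936). Its groups lay across each other, and the sign of the difference turned when WT array 3 or En2-/- array 3 was left out (-0.10 and -0.04). Pitx3 was above background on all 12 arrays.

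Foxa2 was just below the filter and Foxa1 and Lmx1a were well below it. Foxa2, the forkhead factor of floor plate and dopaminergic progenitors that adult dopaminergic neurons keep, was above background on 2 of 3 arrays in each genotype of the cerebellum, so it was not tested. It was at 2.46, 6.07 and 5.32 in WT and at 3.04, 8.01 and 7.90 in En2-/-, and arrays 2 and 3 of each genotype were above background. On those 4 arrays all 10 spots were above background, with an SD between 0.11 and 0.26, while on WT array 1 and En2-/- array 1 no spot was. Within slides 2 and 3 the En2-/- array was higher by 1.93 and 2.58. Foxa1, a related forkhead factor, was above background on En2-/- array 2 alone, at 4.02, and between 2.02 and 2.89 on the other 5 arrays. Lmx1a, the LIM homeodomain factor that specifies the lineage, was above background on none, between 2.08 and 3.35, with its highest value again on En2-/- array 2. Without any filter none of these genes passed the test.

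Aldh1a1, which is also made by cells outside the dopaminergic system, moved the other way from the rest. It was at 15.26 and 15.15 on WT arrays 1 and 2, with the spot on WT array 3 left out as an outlier, and at 14.64, 14.95 and 14.72 on the En2-/- arrays. All 3 En2-/- arrays lay below both WT values. Every En2-/- array lay below every WT array for 8.79% of the 15611 genes tested, of which 15286 had all 6 values. With only 2 WT values such a separation comes more easily, so that share is not a like measure for Aldh1a1. The log2 fold change was -0.43 (SE 0.22, limma, adjusted p = 0.625), estimated from 2 WT arrays. With 2 against 3 arrays the exact two-sided permutation p was 0.2, and 0.1 is the smallest it can give.

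**Figure D2:**
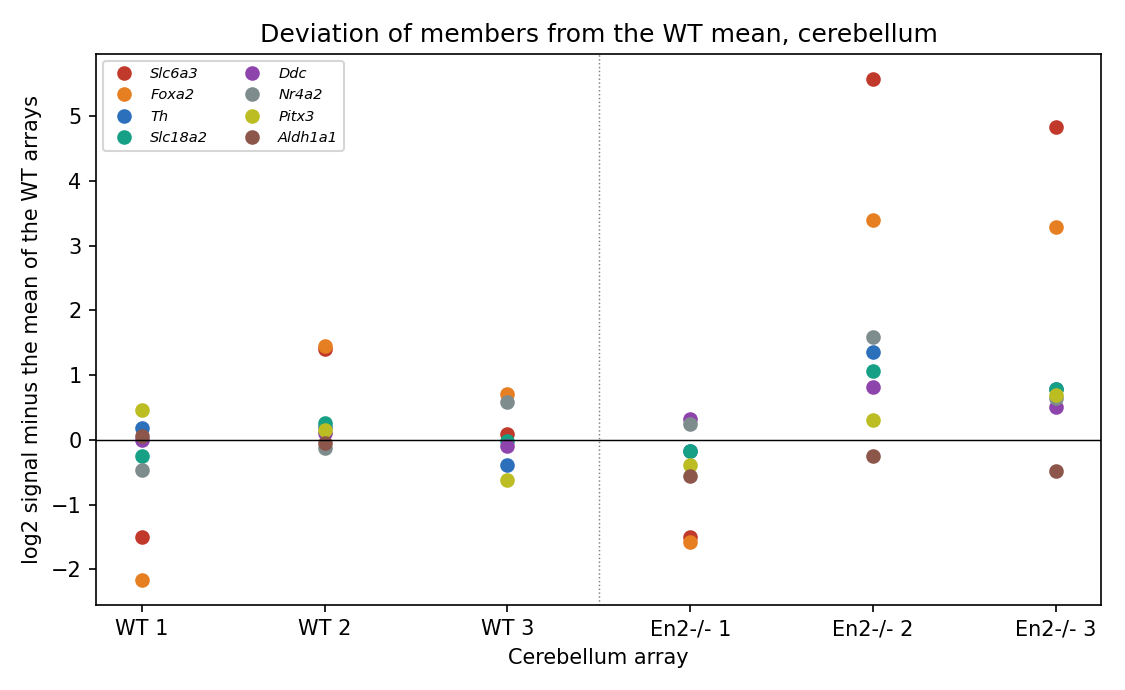
Log2 signal minus the mean of the WT arrays (y axis) for 8 members, 1 colour per gene, on the 6 cerebellum arrays (x axis). On En2-/- arrays 2 and 3 every member shown except Aldh1a1 lies above its WT mean, with Slc6a3 and Foxa2 the farthest, and on En2-/- array 1 Slc6a3 and Foxa2 lie below it, as they do on WT array 1.

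Some of the members varied together across the 6 cerebellum arrays, while Aldh1a1 ran the other way and Pitx3 followed less closely. The mean deviation of the 7 tested members from their WT means was -0.22, 0.28 and -0.07 on the WT arrays and -0.32, 1.49 and 1.11 on the En2-/- arrays. Slc6a3 weighed most in this mean because its range was 7.07, against 0.62 to 2.05 for the probes that stand for the other tested genes. The Pearson correlation of each member with the mean was 0.995 for Slc18a2, 0.990 for Slc6a3, 0.929 for Th, 0.842 for Ddc, 0.778 for Nr4a2 and 0.587 for Pitx3, over 6 arrays. The mean holds each member and Slc6a3 above all, so these values are a description, and none is given for Aldh1a1, which lacks a value on WT array 3. Replicate 1 was the lowest of its genotype in both genotypes for Slc6a3, Slc18a2 and Nr4a2, 3 of the 6 members with all values, against 11.4% of genes. A total of 177 other genes among 15285 had a correlation of at least 0.9 with the mean.

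The 15 of these 177 with the widest spread were Cdhr1, Slc26a7, Zfp957, A430033K04Rik, Snora69, Nov, Tph2, Prkar1a, Nr1d2, Edil3, Slc25a13, A330023F24Rik, Slitrk2, Yy2 and Anxa11. Cdhr1, a cadherin known from photoreceptors and the olfactory bulb, had the widest spread (SD 0.85, r = 0.960) and was at 6.39, 7.34 and 6.98 in WT and at 6.91, 8.46 and 8.42 in En2-/-. Tph2, the rate-limiting enzyme of serotonin synthesis in the brain, was at 8.83, 9.63 and 8.87 in WT and at 8.53, 9.88 and 9.68 in En2-/-, with r = 0.904 over the 6 arrays. Tph2 thus shared with Slc6a3 a low value on En2-/- array 1 and a high one on WT array 2. None of the 15 passed the genotype test, and their log2 fold changes ran from 0.25 to 1.03.

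Markers of other cells that could bring these transcripts were read on the same arrays. Of 7 serotonergic markers, 6 were tested in the cerebellum and Slc22a3 was at background on all 6 arrays. The summed signal of this list ran from 2730 to 4310 in WT and from 2710 to 4530 in En2-/-. Tph2 and Slc6a4, the serotonin transporter, were 2 of its 6 tested genes with En2-/- arrays 2 and 3 highest, an order that 8.16% of all genes had. Slc6a4 was at 9.79, 10.22 and 9.89 in WT and at 9.38, 10.34 and 10.23 in En2-/-. It thus had that order by a small margin, and its log2 fold change was 0.02. Of 5 noradrenergic markers, all were tested and 0 had that order; their sum ran from 2100 to 2720 in WT and from 2210 to 3260 in En2-/-. The markers that define noradrenergic cells were lower on all 3 En2-/- arrays: Dbh, the enzyme that turns dopamine into noradrenaline, had a log2 fold change of -0.81 (SE 0.31; limma, adjusted p = 0.472), and Slc6a2, the noradrenaline transporter, of -0.73 (adjusted p = 0.381). Of 11 midbrain and brainstem markers, all tested, 2 had that order, Otx2 and Tal1. The sum of the 11 was 57200, 61600 and 42100 on WT arrays 1, 2 and 3 and 57300, 65300 and 55300 on the En2-/- arrays. The brightest genes in this sum were Spp1 and Nefh. Of 7 choroid plexus markers found on the array, 4 had that order (Ttr, Kl, Clic6 and Aqp1), and their sum ran from 17400 to 21400 in WT and from 22900 to 29400 in En2-/-. Purkinje markers, of which 6 of 7 had a lower mean in En2-/-, summed to between 292000 and 399000 in WT and between 263000 and 283000 in En2-/-. Cholinergic markers, of which 4 of 5 were tested and all 4 had a higher mean, summed to between 633 and 1670 in WT and between 1420 and 2320 in En2-/-. The part of these cells, or of neighbouring midbrain tissue in a dissected cerebellum, in the members' values was not tested.

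The wider dopamine pathway was read from 52 further genes: 6 for the tetrahydrobiopterin cofactor of Th, 5 for breakdown, 5 receptors, 13 regulators and 23 other genes of midbrain dopamine neurons. In the cerebellum 44 of the 52 were tested, and limma called 0, against 0.66% of all genes, with 4 higher and 4 lower at an unadjusted p under 0.05, against 9.3% of all genes in either direction. Of the 44, 27 had a higher and 17 a lower mean in En2-/-, and the median log2 fold change was 0.13, against -0.03 over all genes. All 3 En2-/- arrays lay above all WT arrays for 8 genes and below for 6, which is 8 and 6 of 44 against 6.01% and 8.79% of all genes. En2-/- arrays 2 and 3 were the 2 highest for 7 of the 43 with all values (16.3%), against 8.16% of all genes.

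In the cofactor branch, Gch1, the rate-limiting enzyme of tetrahydrobiopterin synthesis, had a log2 fold change of 0.50 (SE 0.25), while Gchfr, its feedback regulator, had -0.72 (SE 0.39) and Pts, the next enzyme, -0.16 (SE 0.17). All En2-/- arrays lay below WT for Gchfr and Pts. Among the breakdown genes, Dbh lay below WT as given above. Among the receptors, Drd5 and Drd1a, both coupled to cAMP production, lay above WT on all En2-/- arrays, with log2 fold changes of 0.48 (SE 0.19; limma, adjusted p = 0.473) and 0.38 (SE 0.18; limma, adjusted p = 0.609). Drd4, of the D2 type, had -0.70 (SE 0.27; limma, adjusted p = 0.472) with overlapping groups, and Drd2 had 0.35 (SE 0.46). None of these passed the test.

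Among the regulators, Otx2, which patterns the midbrain and which choroid plexus also makes, was at 7.73, 8.32 and 8.41 in WT and at 8.70, 9.25 and 9.21 in En2-/-. The groups did not overlap, and the log2 fold change was 0.90 (SE 0.26; limma, unadjusted p = 0.00809, adjusted p = 0.287). Wnt5a (0.17, SE 0.19) lay above WT on all En2-/- arrays and Neurog2, a proneural factor, below (-0.39, SE 0.21). En1, the engrailed gene that acts beside En2 in midbrain dopaminergic neurons, was above background on 2 of 6 cerebellum arrays, En2-/- arrays 2 and 3, at 4.91 and 4.18, and between 2.77 and 3.42 on the other 4 arrays. En1 was therefore not tested, and it was chosen for mention after its values were seen.

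Among the other genes of midbrain dopamine neurons, Chrna6 and Chrnb3, nicotinic receptor subunits enriched in these cells, also had En2-/- arrays 2 and 3 as their 2 highest. They were likewise not tested and were chosen after their values were seen. Chrna6 was at 3.53, 4.38 and 3.13 in WT and at 2.54, 5.94 and 5.20 in En2-/-, above background on 1 WT and 2 En2-/- arrays. Chrnb3 was at 2.76, 3.38 and 2.06 in WT and at 4.87 and 3.77 on En2-/- arrays 2 and 3, while En2-/- array 1 lay below every WT array. It was above background on 1 of the 6 arrays. In this list, 4 of 20 tested genes (20%) had this order, against 8.16% of all genes tested with 6 values. That share holds no untested genes, so it gives no measure for the 2 of 3 untested genes with this order. Of the 4 tested genes, Dlk1, Ntsr1 and Park2 also lay above WT on En2-/- array 1, and Chrna4 lay within WT there. Ret, a receptor tested in the same list, did not have this order. It was at 4.29, 4.47 and 4.59 in WT and at 3.78, 6.11 and 3.90 in En2-/-. Dlk1, a Notch-type surface protein of dopaminergic neurons, lay above WT on all En2-/- arrays, at 10.56, 10.82 and 9.49 in WT and 11.18, 11.21 and 11.61 in En2-/- (log2 fold change 1.04, SE 0.35; limma, adjusted p = 0.376). Ntsr1, a neurotensin receptor, also lay above WT on all En2-/- arrays (0.77, SE 0.42). Calb1, a calcium-binding protein that Purkinje cells make in large amounts, and Cntn6, a contactin, lay below WT (-0.55, SE 0.18, and -0.46, SE 0.19; limma, adjusted p = 0.37 and 0.518). Kcnj6, a potassium channel, Chrna4, Cacna1d and Cck had differences of 0.45, 0.44, -0.31 and -0.31 with overlapping groups, and Sox6, a further regulator, had 0.27.

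Park2, the ubiquitin ligase parkin, gave opposite orders of the genotypes on a pair of probes. The probe that stands for the gene was at 9.38, 10.05 and 9.58 in WT cerebellum and at 10.10, 11.43 and 10.28 in En2-/- (log2 fold change 0.94, SE 0.37; limma, adjusted p = 0.483). A dimmer Park2 probe was at 5.44, 4.66 and 5.54 in WT and at 3.41, 3.58 and 3.29 in En2-/-. In the hippocampus the dimmer probe was at 5.46, 4.88 and 5.20 in WT and at 3.63, 3.54 and 3.05 in En2-/-. It was above background on all WT arrays and on no En2-/- array of either region, so its En2-/- values are bounds: the WT signal was at least 2.68-fold higher in the cerebellum and at least 1.39-fold higher in the hippocampus. With every probe tested on its own, limma called it in both regions (adjusted p = 0.0376 and 0.0151). The probe that stands for the gene was at 9.35, 11.44 and 9.60 in WT hippocampus and at 11.31, 11.29 and 11.56 in En2-/-. Its groups overlapped there, with a log2 fold change of 1.25 (SE 0.50, limma, adjusted p = 0.223). In each region the mean was thus higher in En2-/- on this probe and lower on the dimmer probe.

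In the En2-/- hippocampus, Ddc was again above WT on all arrays, and no member passed the test. Of 10 members 6 were tested there, 4 with a higher and 2 with a lower mean in En2-/-, and their median log2 fold change was 0.40, against 0.05 over all 14986 genes tested. This median ran from 0.15 to 0.57 with 1 array left out and was 0.07 without a filter. limma called 200 genes, 1.33% of those tested, and 0 of the 6 members at an adjusted p under 0.05, and 1 member, Ddc, at an unadjusted p under 0.05, against 19.5% of all genes. Th, Foxa1, Foxa2 and Lmx1a were not above background on any hippocampus array.

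Ddc was at 10.44, 10.86 and 10.33 on the WT hippocampus arrays and at 11.50, 10.98 and 11.32 on the En2-/- arrays, so the groups did not overlap. The log2 fold change was 0.72 (SE 0.22), a 1.65-fold higher signal, with an adjusted p of 0.147 by limma and an exact two-sided permutation p of 0.1. The other probe of Ddc was at 6.65, 7.07 and 6.97 in WT and at 8.15, 7.19 and 7.55 in En2-/-, also without overlap, with a log2 fold change of 0.74 (SE 0.27; limma over all probes, adjusted p = 0.176). All En2-/- arrays lay above all WT arrays for 15.2% of genes tested in the hippocampus, so 1 of 6 members is near that share. On its brighter probe Ddc was thus the only member whose 3 En2-/- arrays were above WT in both regions, while on its dimmer probe this held in the hippocampus only.

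**Figure D3:**
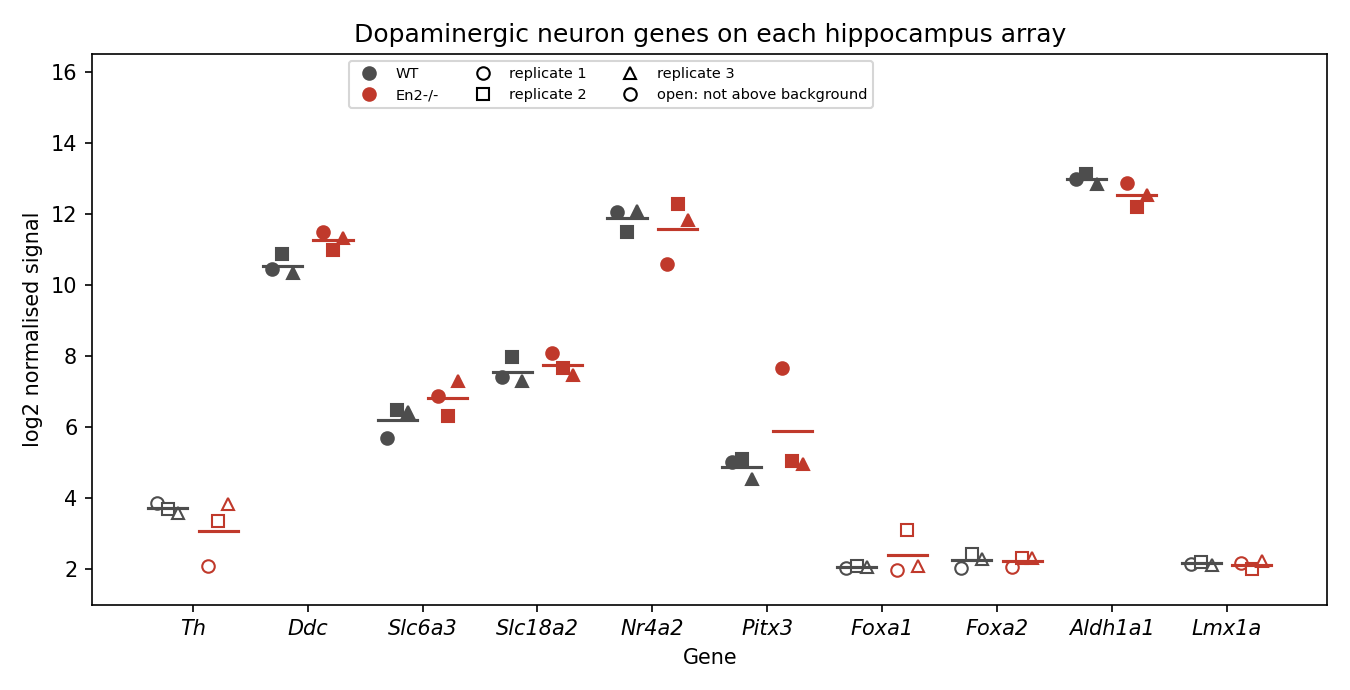
Log2 normalised signal (y axis) of the 10 members (x axis) on the 6 hippocampus arrays, WT in grey and En2-/- in red, with the replicate number as the marker shape, open markers where the probe was not above background and a bar at the mean of each group. Ddc lies higher on all En2-/- arrays, from 10.98 to 11.50 against 10.33 to 10.86, and Pitx3 is at 7.67 on En2-/- array 1 alone.

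The other members of the hippocampus overlapped between genotypes. Pitx3 was at 5.01, 5.09 and 4.53 in WT and at 7.67, 5.03 and 4.95 in En2-/-, so array 1 alone was high. Its log2 fold change was 1.01 (SE 0.67; limma, adjusted p = 0.43), and 0.12 without En2-/- array 1. Slc6a3 was at 5.70, 6.48 and 6.43 in WT and at 6.86, 6.32 and 7.29 in En2-/- (0.62, SE 0.30; limma, adjusted p = 0.307). Its range over the 6 hippocampus arrays was 1.59, without the jump seen on En2-/- arrays 2 and 3 of the cerebellum. Slc18a2 was between 7.29 and 7.96 in WT and between 7.46 and 8.09 in En2-/- (0.18, SE 0.25), and its other probe gave -0.10 (SE 0.33). Nr4a2 was at 12.05, 11.48 and 12.08 in WT and at 10.59, 12.27 and 11.84 in En2-/- (-0.31, SE 0.41; limma, adjusted p = 0.708), and without En2-/- array 1 the sign turned to 0.18. Aldh1a1 was at 12.97, 13.11 and 12.84 in WT and at 12.88, 12.20 and 12.52 in En2-/- (-0.44, SE 0.21; limma, adjusted p = 0.3).

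The mean deviation of the 6 members over the hippocampus arrays was -0.07, 0.16 and -0.09 in WT and 0.60, 0.07 and 0.23 in En2-/-, with En2-/- array 1 the highest. Nr4a2 ran against this mean (Pearson r = -0.905 over 6 arrays) and Ddc and Pitx3 with it (0.907 and 0.904). The 5 genes with the widest spread among the 151 others with r of at least 0.9 were Atp10d, C3, Zic4, Mfsd7c and Cul9, and none passed the genotype test. Beside these values, the summed signal of 7 thalamus markers ran from 6650 to 8470 in WT hippocampus and from 10200 to 15400 in En2-/- hippocampus, and that of 7 choroid plexus markers from 22800 to 58600 and from 4430 to 94100, the highest on En2-/- array 1. Their part in the members' values was not tested. Of the 52 pathway genes, 41 were tested in the hippocampus and limma called 0, against 1.33% of all genes. At an unadjusted p under 0.05, 6 were higher and 1 lower, against 19.5% of all genes in either direction, and the median log2 fold change was 0.14, against 0.05 over all genes. Leaving out 1 array changed this count to 1 in 2 cases: Park2 without WT array 2 and Dlk1 without WT array 3 (1.91 and 2.10; limma, adjusted p = 0.0323 and 0.0293). Dlk1 had a log2 fold change of 1.52 with all arrays (SE 0.47; limma, adjusted p = 0.156), and all En2-/- arrays lay above WT, as in the cerebellum.

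**Figure D4:**
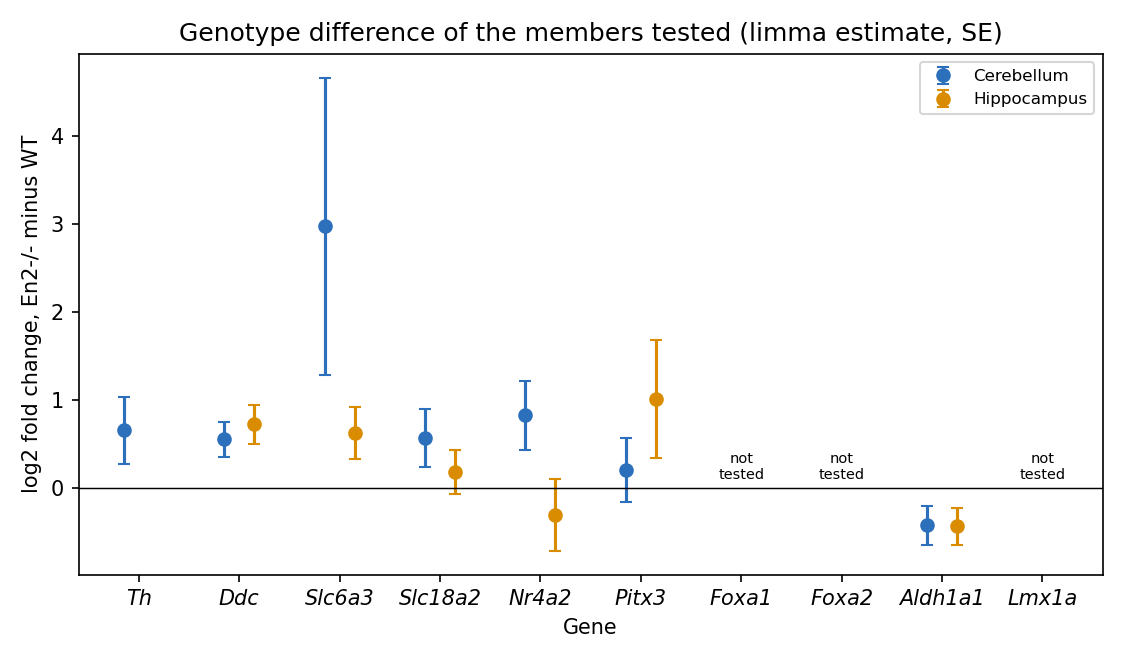
Log2 fold change of En2-/- against WT (y axis, limma estimate with its SE as the bar, 3 arrays a group except 2 WT arrays for Aldh1a1 in the cerebellum) for each member tested (x axis), cerebellum in blue and hippocampus in orange. Ddc has close values in both regions, 0.55 and 0.72, and the SE of Slc6a3 in the cerebellum, 1.69, is the widest; Th was tested in the cerebellum only, and no estimate passed the test.

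Whether the genotype effect differed between the regions was tested for the 6 members measured in both. limma called 0 of the 6 members, against 0.116% of 14699 genes, and no member had an unadjusted p under 0.05. The effect in the cerebellum minus that in the hippocampus was 2.35 for Slc6a3 (SE 1.96; limma, adjusted p = 0.62), 1.13 for Nr4a2 (SE 0.62; limma, adjusted p = 0.472), 0.38 for Slc18a2 (SE 0.43), -0.17 for Ddc (SE 0.29), 0.00 for Aldh1a1 (SE 0.29) and -0.81 for Pitx3 (SE 0.84).

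The member differences that passed the test were those between the WT regions. limma called 5 of the 7 members tested between WT cerebellum and WT hippocampus, against 27.9% of all 15687 genes tested. Of these 5, 4 were higher in the cerebellum and Nr4a2 was higher in the hippocampus. Th was at 7.91 to 8.50 in WT cerebellum and at 3.58 to 3.86 in WT hippocampus, where it was not above background on any array, so its signal was at least 14.6-fold higher in the cerebellum (limma, adjusted p = 2.84e-06). In En2-/- mice the bound was 19-fold. The bound sets the cerebellum mean against the lowest signal called above background on each hippocampus array.

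Slc18a2 was 6.16-fold higher in the cerebellum (log2 difference 2.62, SE 0.25; limma, adjusted p = 9.27e-05), Aldh1a1 4.7-fold (2.23, SE 0.22; adjusted p = 0.000247, with 2 cerebellum values) and Ddc 2.65-fold (1.41, SE 0.22; adjusted p = 0.00147). The regions did not overlap for any of these. Nr4a2 was between 8.57 and 9.62 in WT cerebellum and between 11.48 and 12.08 in WT hippocampus, a log2 difference of -2.84 (SE 0.31; limma, adjusted p = 0.000198). Slc6a3 (0.58, SE 0.62; limma, adjusted p = 0.522) and Pitx3 (0.29, SE 0.30; limma, adjusted p = 0.52) overlapped between the regions. Foxa2 was above background on 2 of 3 WT cerebellum arrays and on no hippocampus array, which gives at least a 1.14-fold higher signal in WT cerebellum and at least 3.05-fold in En2-/- cerebellum, with no test. Foxa1 and Lmx1a were below background in both WT regions. Array images of the 2 regions were extracted from the scans at different times, so region and image extraction cannot be told apart in these differences.

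**Figure D5:**
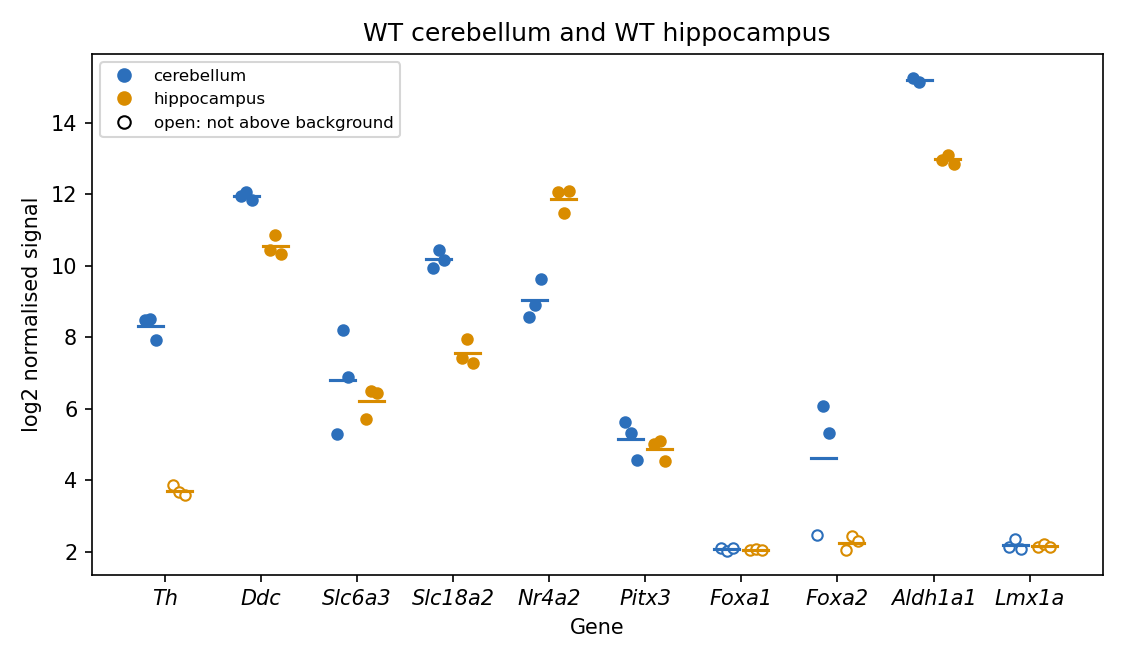
Log2 normalised signal (y axis) of the 10 members (x axis) on the 3 WT cerebellum arrays (blue) and the 3 WT hippocampus arrays (orange), with open markers where the probe was not above background and a bar at the mean. Th, Ddc, Slc18a2 and Aldh1a1 lie higher in the cerebellum, Nr4a2 lies higher in the hippocampus, and Slc6a3 and Pitx3 overlap.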

How the data were processed

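RNA from whole cerebellum and hippocampus of WT and En2-/- mice was labelled with Cy3 and hybridised to Agilent 4x44K arrays, 3 per group. The authors deposited scanner files of Agilent Feature Extraction 10.7.3.1, whose processed signal is an intensity after background subtraction, on mm9 annotation. They also deposited a table of log2 values, quantile normalised separately by region as far as its columns show; ranked by value, its columns followed their own arrays (Spearman 0.9999 or more, against 0.9904 or less for the remaining arrays). Their medians were 9.566 to 9.58 for cerebellum and 9.501 to 9.516 for hippocampus. The values were not centred by gene, and the table served as an alternative.

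Here log2 of the processed signal was taken for the 43379 non-control spots. Spots flagged as outliers (110 to 331 per array) were left out, no spot was saturated, and values were quantile normalised over the 12 arrays and averaged per probe. The median ratio of mean signal to local background was between 5.719 and 10.35; precision is limited by having 3 arrays a group. The probe with the highest mean stood for a gene. Groups were taken from the sample titles. limma 3.58.1 in R 4.3.3 fitted genotype within each region, region within WT, and the difference of genotype effects over 12 arrays; p-values were adjusted by Benjamini-Hochberg over all genes tested. The rank product of the study's methods was kept as an order only. The scripts were tested on simulated data.

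The members, the lists and the tests were chosen with earlier results of these data known. Genes of the pathway list were named if called, if their cerebellum groups did not overlap, or as at most 10 others by size of the cerebellum difference; genes like the members were those with r of at least 0.9, the 15 (cerebellum) and 5 (hippocampus) with the widest spread. Exceptions are marked in the text. Some genes that this rule names are not reported here. The other marker lists (cholinergic, Purkinje, thalamus, hypothalamus, striatum, granule neuron, unipolar brush, hippocampal neuron, meninges, microglia, astrocyte, oligodendrocyte and immediate early genes) had 0 tested genes with En2-/- arrays 2 and 3 of the cerebellum highest, except the striatum with 1 (Drd1a). The labels do not say that arrays come from separate litters, so p-values measure the spread between these arrays.

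The 4 arrays of a replicate number shared a slide, per the file headers. Alternatives were the background correction, the scaling, the authors' values, the filter, the choice of probe, 1 fit over 12 arrays, the replicate block, each array left out and, added after seeing the data, both arrays of a slide left out.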

Additional observations from a re-analysis of the deposited data

How the results depend on the processing

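No member was called for genotype in either region under the background corrections, scalings, filters, probe choices, the authors' values, the fit over 12 arrays or with any single array left out. Deviations of WT and En2-/- arrays of the same number correlated at -0.05, 0.11 and 0.00 in the cerebellum and at -0.19, 0.09 and -0.09 in the hippocampus. Within a region the data thus did not show the numbers to pair the arrays. Cerebellum and hippocampus arrays of the same number correlated at 0.28, -0.23 and 0.08 in WT and at 0.16, 0.12 and -0.07 in En2-/-. Other pairs ran from -0.33 to 0.21 and from -0.16 to 0.08. Whether arrays of the same number came from the same mouse was thus not settled. With the replicate number, which is also the slide, as a block, the counts of members called stayed at 0 in both regions, at 5 between WT regions and at 0 for the difference between regions, and the block changed no call of the members. Without slide 1 of the cerebellum 1 member, Slc6a3, was called (4.45). With probes required above background on all arrays of both groups, 3 members were called between WT regions, because Th and Aldh1a1 did not pass this filter. With each array left out in turn the count between WT regions ran from 4 to 5, and no count for the genotype or the difference between regions moved from 0. For the dopamine pathway genes, testing every probe on its own gave 1 called in the cerebellum and 1 in the hippocampus, both Park2, and leaving out 1 array gave 0 to 1 in the hippocampus and 0 in the cerebellum. The median log2 fold change of members in the cerebellum ran from 0.31 to 1.00 with 1 array left out, the highest without En2-/- array 1. Without array 1 of either genotype this median also takes in Foxa2, and without WT array 1 or 2 it loses Aldh1a1. In the hippocampus it ran from 0.15 to 0.57 with 1 array left out, was 0.07 without a filter, where probes at background enter, and was 0.72 without slide 2. Of 259 alternative values of single members, 251 kept direction and side of the threshold, 1 passed it and 7 turned sign, with the cause not tested. Those that turned were Pitx3 in the cerebellum (-0.10 without WT array 3, -0.04 without En2-/- array 3, -0.35 without slide 3; -0.10 to 0.50 with 1 array left out), Nr4a2 in the hippocampus (0.18 without En2-/- array 1, 0.27 without slide 1; -0.66 to 0.18 with 1 array left out) and Slc18a2 in the hippocampus (-0.10 on its other probe, -0.07 without slide 1). The count of members highest on En2-/- arrays 2 and 3 was 5 under each scaling and background correction tried. The authors' values, normalised by region, were not used between WT regions, and the slide as a block of its own was not run because it equals the replicate number. Signals of Foxa1, Foxa2, Lmx1a and hippocampal Th near background limit what can be said of them.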
